A study of Mus musculus with 17 samples.

Results

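The genes described here encode organic ion and drug transporters, the carriers of the Slc22a, Slco and Slc47a families. They were taken as every protein-coding mouse gene whose symbol begins with one of these 3 stems, matched by Ensembl identifier. This gave 41 genes among the 53313 gene identifiers common to all 17 count files, of which 25 belonged to Slc22a, 14 to Slco and 2 to Slc47a.

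The study sequenced polyadenylated RNA of cultured mouse kidney cells and of whole mouse kidneys to ask how cellular senescence and age change the kidney transcriptome. Primary tubular epithelial cells (PTEC) were grown out of collagenase-digested kidneys of wild-type C57BL/6Rj mice, a strain written C57BL/6JRj in the paper. They were sampled either without irradiation on day 6 (non-senescent, n = 4) or on day 16 after γ-irradiation with 10 Gray (senescent, n = 4). Irradiation and the longer time in culture came together, so their effects cannot be told apart. Kidney tissue with all its cell types (part of the right kidney, called whole kidney here) was taken from healthy male wild-type mice of the same strain at 3, 12 and 24 months of age (n = 3 each), with no treatment. The labels do not say whether the cultures came from separate animals, so the p-values measure only the spread between these samples.

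In the proximal tubule, drugs, toxins, urate and metabolic waste cross the cell in 2 steps. Basolateral Slc22a carriers take organic anions (the anion transporters Slc22a6 and Slc22a8) or organic cations (the cation transporter Slc22a2) out of the blood, driven by dicarboxylate exchange or by the membrane potential. Apical carriers then pass them to the urine, as Slc47a1 does for cations in exchange for protons, or return solutes to the cell, as the urate exchanger Slc22a12 does. Slco genes encode sodium-independent carriers of bulky anions such as steroid conjugates, bile acids, thyroid hormones and prostaglandins.

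Total counts per library ran from 26963442 to 32838856 in non-senescent PTEC, from 29041073 to 35409144 in senescent PTEC, from 37311247 to 49471409 in 3-month-old kidneys, from 54097073 to 59718029 in 12-month-old kidneys and from 62761670 to 66894790 in 24-month-old kidneys. Depth therefore differed with age. Of 12 proximal tubule marker genes, 6 reached 1 CPM (counts scaled to a total of 1000000) in every culture of each PTEC group, and the markers summed to 255 to 948 CPM in non-senescent cultures, 255 to 399 CPM in senescent cultures and 41299 to 54076 CPM in kidneys. The phosphate carrier Slc34a1 and the enzyme Miox, which define the mature proximal tubule, were at 3 counts or fewer in each senescent culture. The PTEC label thus held only for a part of its marker list. In all these bulk samples, fewer cells of a type and less RNA per cell cannot be told apart.

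Promoter sequence is shown for Slco1a1 and Slco4a1, a pair of members on which the results turn, because both hold AGGTCA, letters that nuclear receptors, among them the proximal tubule regulator HNF4, are known to bind. The longer CAAAGTCCA, which HNF4 is known to prefer, was searched as well. The sequences come from RefSeq on GRCm38.p6, where 35 of the 41 members had at least 1 entry. Slc22a7, Slc22a21, Slc47a1, Slco3a1 and Slco5a1 were among those without one. Each run is written 5′ to 3′ on the gene's own strand, with every match to AGGTCA in capitals, also where it reads TGACCT because it lies on the opposite strand. Slco1a1 is shown at chr6:141946963-141947112 (reverse strand) and Slco4a1 at chr2:180460778-180460927 (forward strand).
Slco1a1: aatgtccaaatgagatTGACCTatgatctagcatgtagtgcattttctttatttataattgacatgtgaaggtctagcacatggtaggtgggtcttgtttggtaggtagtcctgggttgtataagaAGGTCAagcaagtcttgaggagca
Slco4a1: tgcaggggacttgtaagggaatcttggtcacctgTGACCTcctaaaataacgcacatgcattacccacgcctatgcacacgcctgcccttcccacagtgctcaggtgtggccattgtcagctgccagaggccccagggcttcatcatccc
Slco1a1 carries AGGTCA at 134 bases (opposite strand) and at 24 bases before its start, and Slco4a1 at 166 bases before the start shown (opposite strand). That start is the second of 2 RefSeq entries for Slco4a1 and lies inside the gene, whose annotated span is chr2:180456245-180474867, forward strand.

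Both strands of each window from 250 bases before to 50 bases after the start were searched for these letters. AGGTCA was in 5 of 40 member windows (12.5%), those of Slc22a14, Slc22a27, Slco1a1, Slco1b2 and Slco4a1, against 16.3% of all 32851 windows. CAAAGTCCA was in 0 member windows against 0.475% of all. These are matches of letters, not measured binding sites.

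Whole kidneys expressed most members and the cultures far fewer. Of the 41 genes, 27 were at 1 CPM or more in every kidney, 13 in every PTEC culture and 11 in both, whereas 9 stayed under 1 CPM in all 17 libraries. Slco6c1 and Slco6d1 had no counts at all. Together the members took 0.772 ± 0.0911% of counts in 3-month-old kidneys, 0.881 ± 0.109% at 12 months and 0.739 ± 0.0435% at 24 months (SD, n = 3 each). Their share was 0.0895 ± 0.0176% in non-senescent and 0.0784 ± 0.00915% in senescent PTEC (SD, n = 4 each).

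Levels of different genes were ordered on counts per kilobase of merged exons scaled to a common library total. Over the 9 kidneys the order was led by Slc22a12 at 1362, and the highest also included Slc22a18 at 918, Slc22a6 at 757, Slc22a2 at 502, Slc47a1 at 451, Slc22a7 at 385, Slc22a8 at 252, Slco1a1 at 216 and Slc22a28 at 215. Neighbours in this order overlapped over the 9 kidneys in every case, so their ranks are not separated. Within the 3-month-old kidneys Slc22a12 (1418 ± 333, SD, n = 3) stood above Slc22a18 (800.1 ± 278), separated by only the values 1080 and 1072. The organic anion transporter Slc22a6 was at 631 ± 192 and its relative Slc22a8 at 157 ± 114 in the same 3 kidneys.

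The order in culture was a different one. Over the 8 PTEC cultures, Slc22a23 (115 ± 52.1), an orphan carrier, and Slco2a1 (109 ± 30.6), the prostaglandin transporter that clears prostaglandin E2 from the extracellular space, were highest on the same length scale. Their order differed between the groups. In non-senescent cultures Slco2a1 (131 ± 28.1, lowest 101) was above Slc22a23 (72.9 ± 20.4, highest 97.7), and in senescent cultures Slc22a23 (158 ± 33.4, lowest 126) was above Slco2a1 (87.7 ± 12.9, highest 103), both without overlap. Over all 8 cultures they were followed by Slco3a1 (46.4 ± 7.21), Slco4a1 (23.2 ± 18.5) and Slc22a5 (22.5 ± 5.53), the sodium-dependent carnitine transporter. Slco2a1 did not overlap with Slco3a1.

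**Figure D1:**
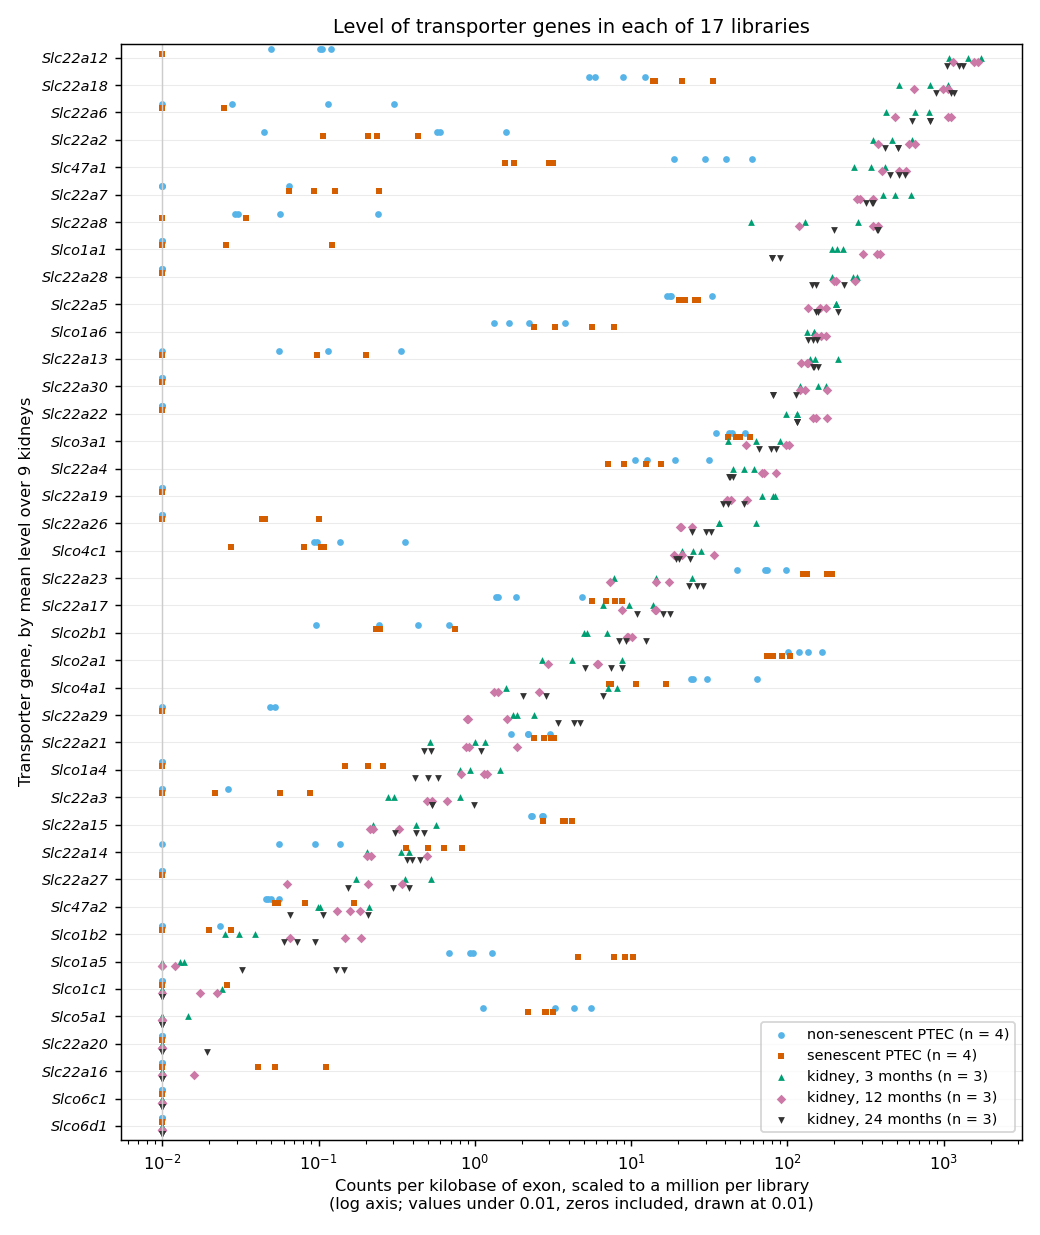
Level of transporter genes (counts per kilobase of exon scaled to a common library total, log axis, values under 0.01 drawn at 0.01) in each of the 17 libraries, coloured by group and ordered by the mean of the 9 kidneys. Slc22a12 leads the kidneys at 1362, while Slc22a23 and Slco2a1 lead the cultures at 115 and 109.

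To describe what culture retained, non-senescent PTEC were set beside the 3-month-old kidneys after scaling all 17 libraries together, without a test because cell make-up, culture and sequencing cannot be told apart. A member was taken as lower when the groups did not overlap and the mean CPM differed at least 4-fold. Of the 28 members at 1 CPM or more in every 3-month-old kidney, 23 (82.1%) were lower in culture, against 17.9% of the 12919 genes measured in the same way. By the same rule only Slco2a1 of these 28 was higher, by 11.2-fold, against 6.31% of genes. Slc22a15, Slc22a23 and Slco4a1 were also above every 3-month-old kidney in each culture, but by 2.68-, 2.06- and 2.70-fold, short of 4-fold. Slco3a1 was 3.36-fold lower without overlap, also short of it. The choice of genes by their kidney level favours lower calls in culture. Among the 30 members at 1 CPM or more in every library of either group, a choice made after the data were seen, 23 (76.7%) were lower and 2 higher (Slco2a1 and Slco5a1), against 16.9% and 10.2% of 13736 genes.

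The basolateral anion and cation carriers were among the lower members. Slc22a6 had 1, 0, 4 and 9 counts in the 4 non-senescent cultures and 0, 0, 1 and 0 in the 4 senescent ones, and its mean in 3-month-old kidneys was 12693-fold higher than in non-senescent PTEC (26273-fold without non-senescent replicate 4, left out in this and the following folds after the data were seen). Slc22a8 had 2, 1, 1 and 7 counts and 0, 1, 0 and 1 counts, with a 4017-fold higher mean in kidney (8790-fold without replicate 4). For Slc22a2, counts of 1, 12, 13 and 29 and of 4, 8, 6 and 2 went with a 1573-fold difference (2527-fold without replicate 4). From the pooled culture counts, the 95% exact Poisson intervals of the folds were 8087 to 24817 for Slc22a6 and 2305 to 8262 for Slc22a8, counting error only. These 3 uptake carriers were thus represented in culture by 29 counts or fewer per library.

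The apical urate exchanger Slc22a12 had 1, 2, 2 and 2 counts in the non-senescent cultures and 0 in each senescent culture, and its pooled non-senescent level was 34792-fold below kidney (95% exact Poisson interval 16886 to 86537, counting error only). Of the members, 7 had 0 counts in each non-senescent culture and 1 CPM or more in every 3-month-old kidney. Against a floor of 3 counts per library they were from at least 43.3-fold (Slco1a4) to at least 7004-fold (Slco1a1) lower, and Slc22a19, Slc22a28 and Slc22a30 of the cluster at least 2693-, 3142- and 3266-fold lower. Slco4c1, the basolateral carrier of digoxin and uremic toxins, had 6, 4, 4 and 13 counts and 4, 1, 4 and 4 counts, and was 341-fold lower in non-senescent PTEC (513-fold without replicate 4).

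Other members kept part of their level. Slc22a5 was 22.0-fold lower in culture, Slc47a1 20.8-fold and Slc22a4, which carries ergothioneine, 6.51-fold. Slco5a1 and Slco1a5 went the other way. Slco5a1 was at 15.7, 20.02, 5.06 and 11.7 CPM in the non-senescent cultures, 9.33, 9.31, 7.83 and 10.7 CPM in the senescent cultures, and under 1 CPM in each of the 9 kidneys. Slco1a5 reached 1 CPM only in cultures.

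Senescent PTEC differed from non-senescent PTEC in 8 of the 16 members with enough counts to be tested, 4 in each direction. A gene was called when the edgeR quasi-likelihood test gave an adjusted p below 0.05 and the log2 fold change exceeded 0.5 in size. The cation carrier Slc47a1 and the anion carriers Slco4a1 and Slco2a1 were among the down-regulated members, and Slco1a5, Slc22a17, Slc22a18 and Slc22a23 were up-regulated. Among all 15434 genes tested, 20.1% were called higher and 19.7% lower, so the 4 of 16 in each direction lay near the background. The median log2 fold change was -0.01 over the 16 members and 0.00 over all genes. The other 25 members had too few counts in PTEC for a test. Without the low-count filter edgeR added Slc22a14 and Slco1a4 as higher and Slc22a6 and Slc22a12 as lower, and Slco1a4 then rested on 0, 0, 0 and 0 counts in the non-senescent and 13, 7, 0 and 10 counts in the senescent cultures.

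Slc47a1, an apical exchanger of organic cation secretion, was down-regulated in senescent PTEC. Slc47a1 (chr11:61343401-61378345, reverse strand, GRCm38 as for all gene positions), which moves cations out against protons, was at 27.8, 17.4, 46.6 and 55 CPM in the non-senescent and at 1.51, 1.31, 2.78 and 2.76 CPM in the senescent cultures. The groups did not overlap, and replicates 3 and 4 were the highest in both (log2 fold change -4.13 ± 0.42 (SE), adjusted p = 7.90e-05). Slc22a4, another carrier of cations and zwitterions, was at 8.91, 7.42, 16.6 and 21.8 CPM and 5.76, 4.52, 10.8 and 8.26 CPM. Its groups overlapped and it was not called (log2 fold change -0.90 ± 0.38 (SE), adjusted p = 0.0849). With the replicate number as a block in edgeR, a pairing taken from the data and not given by the labels, the adjusted p was 0.00442. Carnitine carriers gave no call. Slc22a5 was at 15.2, 14.3, 18.6 and 27.6 CPM and 19.6, 20.5, 17.1 and 17.5 CPM with a log2 fold change of -0.02 ± 0.21 (SE), and Slc22a21 had 0.17 ± 0.22. Of the 76-base words (stretches of 1 read length) of Slc22a5, 17.7% also occur in Slc22a21. These make up 15.7% of the words of Slc22a21, so reads may be split between the pair.

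Among Slco members, Slco4a1, known for thyroid hormone transport, and the prostaglandin carrier Slco2a1 were down-regulated. Slco4a1 was at 31.9, 33.02, 49.9 and 83.5 CPM in the non-senescent and 8.72, 8.84, 21.9 and 13.3 CPM in the senescent cultures (log2 fold change -1.91 ± 0.39 (SE), adjusted p = 0.00351). Slco2a1 (chr9:102988712-103096002, forward strand), the most abundant Slco gene in these cells, was at 502, 445, 468 and 619.9 CPM and 315, 249, 299 and 362 CPM, without overlap (log2 fold change -0.73 ± 0.16 (SE), adjusted p = 0.00562). On the length scale it was above every other Slco gene in each of the 8 cultures. Slco3a1, a widely expressed carrier, was at 103, 98.3, 102 and 124 CPM and 123, 98.9, 97.3 and 109 CPM and was not called (log2 fold change 0.00 ± 0.13, SE).

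Slco1a5 was the most strongly up-regulated member. It was at 0.953, 1.31, 0.863 and 0.997 CPM in the non-senescent and 9.55, 8.44, 4.65 and 7.50 CPM in the senescent cultures (log2 fold change 2.86 ± 0.28 (SE), adjusted p = 6.42e-05). Its neighbour in the chromosome 6 Slco cluster, Slco1a6, was at 2.34, 1.74, 1.73 and 3.91 CPM and 5.37, 7.37, 2.51 and 3.21 CPM and was not called (log2 fold change 0.92 ± 0.40 (SE), adjusted p = 0.0860).

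The remaining up-regulated members were Slc22a genes outside the classical anion and cation carriers. Slc22a23 was at 131, 126, 104 and 170.4 CPM in the non-senescent and 289, 210.2, 220.4 and 318 CPM in the senescent cultures (log2 fold change 0.97 ± 0.19 (SE), adjusted p = 0.00321). Slc22a17, known as a receptor for lipocalin 2, was at 1.75, 1.71, 2.82 and 5.98 CPM and 6.34, 7.70, 10.9 and 9.22 CPM (log2 fold change 1.48 ± 0.40 (SE), adjusted p = 0.0147). For both genes every senescent culture was above every non-senescent culture. Slc22a18, an imprinted orphan carrier, was at 2.52, 2.72, 5.14 and 5.72 CPM and 5.89, 6.03, 15.5 and 9.29 CPM, with the groups separated by only the values 5.72 and 5.89 (log2 fold change 1.19 ± 0.39 (SE), adjusted p = 0.0317).

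Leaving out each culture in turn kept 7 of these 8 calls in all 8 fits. The call of Slc22a18 was lost in 4 fits, with adjusted p = 0.0801 without non-senescent replicate 1, 0.0746 without non-senescent replicate 2, 0.0853 without senescent replicate 3 and 0.0646 without senescent replicate 4.

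**Figure D2:**
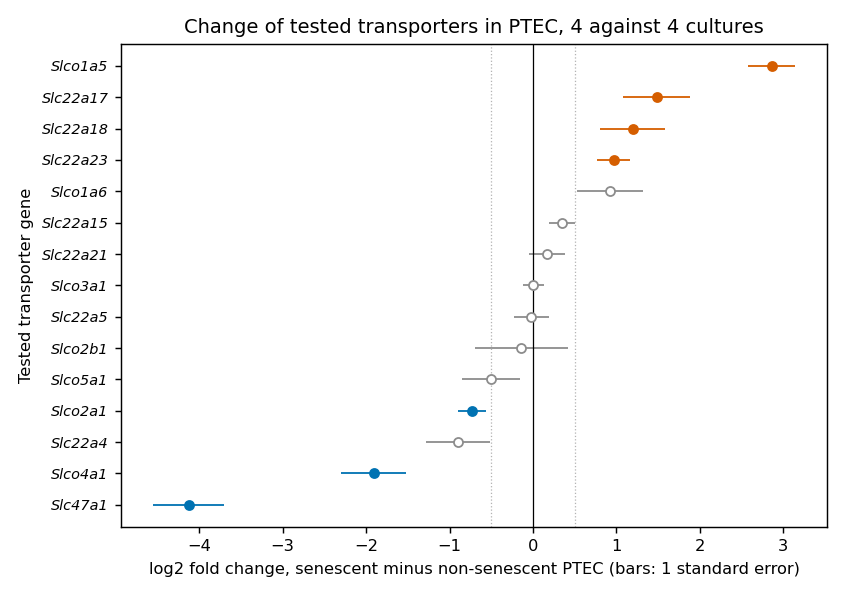
Log2 fold change (senescent minus non-senescent PTEC, ± SE) of tested members, with called members filled and the dotted lines at 0.5 in either direction. The members drawn run from -4.13 for Slc47a1 to 2.86 for Slco1a5.

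**Figure D3:**
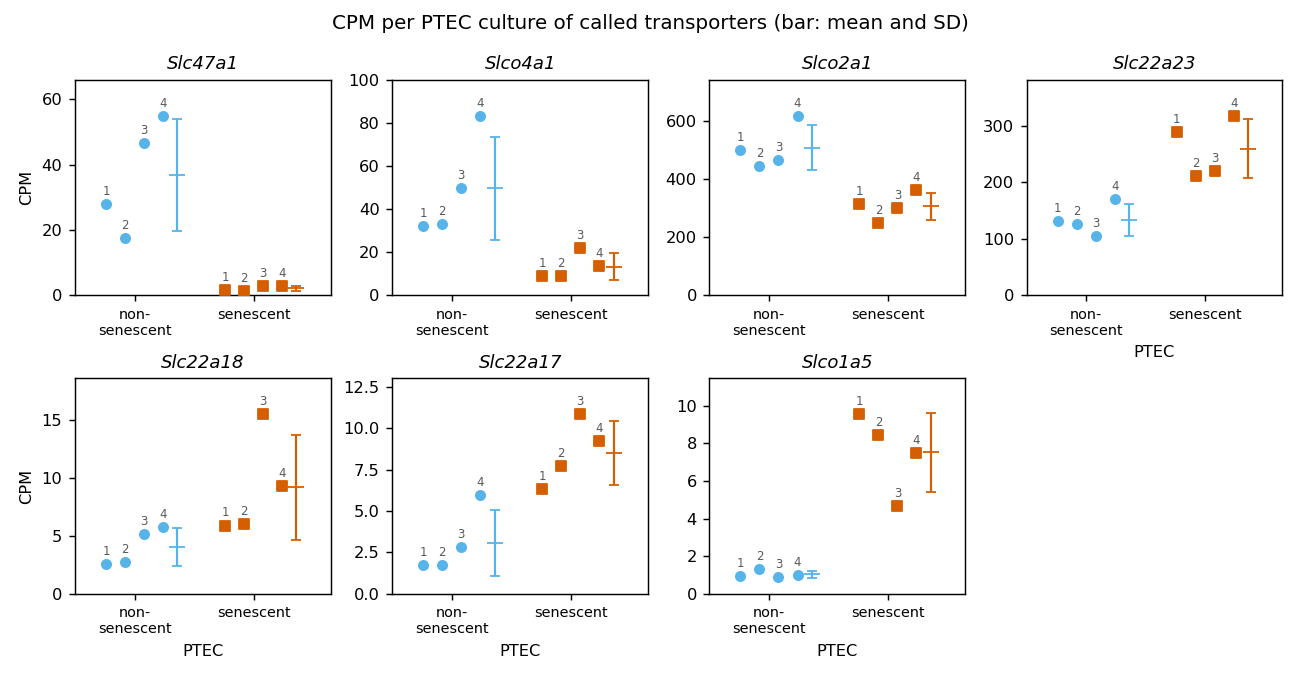
CPM of called members in each of the 4 non-senescent and 4 senescent cultures, with replicate numbers, the mean and its SD. No gene shows overlap between the groups, and for Slc47a1, Slco4a1, Slc22a17 and Slc22a18 non-senescent replicates 3 and 4 lie above replicates 1 and 2.

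Genes that work with these carriers were described by 4 lists, without a test of any list. Their counts stand beside the 19.7% of all genes called lower and 20.1% called higher. At an unadjusted p below 0.05 edgeR had 25.7% of all genes lower and 25.8% higher. DESeq2 called 10.7% lower and 11.5% higher of the 30570 genes it tested. Of 9 tested ABC efflux pumps, 5 passed the test as lower and 0 as higher, and the median over the list was -0.84 on the log2 scale (5 had an unadjusted p below 0.05 in edgeR, and DESeq2 also gave 5 lower and 0 higher). The urate and drug exporter Abcg2 had -1.48 (adjusted p = 9.97e-05) and the apical conjugate exporter Abcc2 had -2.78 (adjusted p = 6.81e-05). Abcc4, which passes organic anions to the urine, had -0.21 and was not called.

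Of 8 tested exchange partners and scaffolds, 6 were lower and 1 higher, with a median of -1.16. Pdzk1, the scaffold that anchors apical carriers, had a log2 fold change of -6.17 (adjusted p = 0.000211) and the dicarboxylate carrier Slc13a2 had -3.82 (adjusted p = 0.000908). Other urate, peptide, nucleoside, bile acid and monoamine carriers had 6 lower and 2 higher of 12, with a median of -0.77, and the urate carrier Slc2a9 was among the higher ones with 1.10 (adjusted p = 0.00305). Transcription factors linked to these carriers had 5 lower and 2 higher of 11, with a median of -1.03. Hnf4a had -2.98 (adjusted p = 3.62e-06), against a median over all genes of 0.00.

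Marker lists of other cells moved between the same cultures. Of 7 tested proximal tubule markers, 4 were lower and 0 higher (4 with an unadjusted p below 0.05). DESeq2, run without this low-count filter, gave 8 lower and 0 higher of the 12 listed. Of the 30570 genes in that DESeq2 fit, 10.7% were lower and 11.5% higher. In edgeR 4 of 4 loop of Henle markers were lower, their sum going from 15.9 to 44.6 CPM down to 1.17 to 3.59 CPM. Distal tubule and collecting duct markers went from 4.06 to 23.2 CPM down to 0.703 to 2.35 CPM without overlap, with 1 of 2 tested lower, and DESeq2 gave 4 lower of the 7 listed. In edgeR 1 of 3 leukocyte (Ptprc) and 1 of 6 endothelial markers were lower, 1 of 3 podocyte markers was higher, and 0 of 1 tested hepatocyte marker was called. Fibroblast and pericyte markers had 3 of 5 higher, with sums of 9.99 to 67.1 CPM in non-senescent and 66.2 to 262 CPM in senescent cultures, while Lum was at 3 counts or fewer throughout. Proliferation markers were lower in 3 of 3, from 484 to 1054 CPM down to 13.6 to 30.2 CPM. Their part in the carrier results was not tested.

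With age, few members of the whole kidney passed the test, and Slco1a1 was the one whose calls at 24 months held when any single kidney was left out. The 3 age comparisons share samples, so each is given by its own values. At 24 against 3 months, 2 of 34 tested members were called lower (Slco1a1 and Slc22a19) and 0 higher in edgeR, against 0.451% and 1.89% of 17067 genes. At an unadjusted p below 0.05, 8 members were lower and 3 higher, against 8.23% and 9.97% of all genes, and DESeq2 called 6 lower and 1 higher, against 1.03% and 2.42% of the genes it tested. The members that DESeq2 added were Slc22a7, Slc22a26, Slc22a30 and Slco1a4 as lower (DESeq2 adjusted p = 0.00225 to 0.0326) and Slco2b1 as higher (0.00702). The median log2 fold change was -0.12 over the members and 0.00 over all genes.

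At 12 against 3 months, 2 members were called higher (Slco1a1 and Slco2b1) and 2 lower (Slc22a7 and Slc22a26), against 1.22% and 1.36% of genes, with a median of 0.06. At 24 against 12 months, 1 was called higher (Slc22a29) and 2 lower (Slco1a1 and Slc22a4), against 0.896% and 0.434% of genes, with a median of -0.06. The remaining 7 members (Slc22a16, Slc22a20, Slco1a5, Slco1c1, Slco5a1, Slco6c1 and Slco6d1) had too few counts in kidneys to be tested.

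Slco1a1 (chr6:141907282-141946962, reverse strand) carries steroid sulfates and bile acids across the apical membrane of the proximal tubule and is known in mice as a male-predominant kidney gene. It was at 506, 406 and 508 CPM at 3 months, 685, 842 and 886 CPM at 12 months and 159, 165 and 198 CPM at 24 months. All 3 ages were separate, with 12 months the highest and 24 months the lowest. The change was -1.44 ± 0.17 on the log2 scale (SE, adjusted p = 0.00398) from 3 to 24 months and -2.21 ± 0.17 (adjusted p = 0.00391) from 12 to 24 months.

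Both calls held in 6 of 6 fits that left out 1 kidney, with adjusted p of at most 0.0315 and 0.0396. The rise to 12 months, 0.77 ± 0.17 (adjusted p = 0.0489), was lost in each of the 6 fits, with an adjusted p of up to 0.165. The labels do not pair the 12- and 24-month-old kidneys. With the replicate number as a block in edgeR, a pairing taken from the data, the fall from 12 to 24 months had an adjusted p of 0.0751 over all 9 kidneys. Over those 2 ages alone it was 5.79e-05. At 24 against 3 months the cluster neighbours Slco1a6 and Slco1a4 had log2 fold changes of -0.09 ± 0.12 and -1.20 ± 0.29 (adjusted p = 0.657 and 0.0705).

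The anion transporters of the chromosome 19 cluster were lower at older ages where they were called, except for Slc22a29. Slc22a19, an apical carrier of steroid sulfates, was at 159, 177 and 210.3 CPM at 3 months, 101, 127 and 94.6 CPM at 12 months and 80.8, 112 and 93.9 CPM at 24 months (log2 fold change -0.93 ± 0.19 (SE), adjusted p = 0.0400 at 24 against 3 months). The 3-month-old kidneys lay above all others, but the call was kept in 1 of 6 fits that left out a kidney, with adjusted p = 0.156 without 24-month replicate 1. Slc22a26 was at 45.6, 73.8 and 50.4 CPM, 31.2, 26.2 and 25.9 CPM and 36.6, 34.8 and 30.04 CPM at the 3 ages (log2 fold change -1.03 ± 0.20 (SE), adjusted p = 0.0368 at 12 against 3 months). Again the 3-month-old kidneys were the highest, and the call was kept in 1 of 6 such fits, with an adjusted p of up to 0.134.

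Slc22a29 (chr19:8160165-8218900, reverse strand) was at 1.79, 1.60 and 2.52 CPM at 3 months, 0.885, 1.56 and 0.868 CPM at 12 months and 3.73, 4.19 and 3.24 CPM at 24 months. It was the only member called higher at 24 against 12 months (log2 fold change 1.75 ± 0.29 (SE), adjusted p = 0.0309), with 0 of 6 calls kept when a kidney was left out (adjusted p up to 0.133). The blocked fits of all 9 kidneys and of the 2 ages alone gave adjusted p = 0.128 and 0.00177. Of its 76-base words, 16.8% also occur in other transcripts, mainly Slc22a27, so reads may be split between them.

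Slc22a28 was at 224, 154 and 259 CPM, 170.0, 232 and 174 CPM and 110.3, 179 and 127 CPM at 3, 12 and 24 months, and its groups overlapped (log2 fold change -0.61 ± 0.25 (SE), adjusted p = 0.249 at 24 against 3 months). Slc22a30 shares sequence with it, and 44.5% of the 76-base words of Slc22a28 occur elsewhere. Its log2 fold change was -0.85 ± 0.25 (adjusted p = 0.122). Levels of this pair are therefore uncertain.

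Outside this cluster, Slc22a7, an anion carrier known for nucleotide and prostaglandin transport, was at 436, 522 and 397 CPM at 3 months, 263, 251 and 315 CPM at 12 months and 283, 285 and 279 CPM at 24 months. The 3-month-old kidneys were above all older ones (log2 fold change -0.71 ± 0.15 (SE), adjusted p = 0.0481 at 12 against 3 months, -0.68 ± 0.15 and adjusted p = 0.0578 at 24 against 3 months). Its gene version differed between the 3-month and older files, and the call was lost in 6 of 6 fits without 1 kidney (adjusted p up to 0.172). Slco2b1 was at 13.05, 16.6 and 13.9 CPM, 24.1, 25.6 and 24.2 CPM and 28.5, 21.5 and 20.8 CPM (log2 fold change 0.76 ± 0.16 (SE), adjusted p = 0.0468 at 12 against 3 months), kept in 1 of 6 such fits (adjusted p up to 0.209). Its exons overlap opposite-strand genes over 549 bases.

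Slc22a4 was at 56.5, 62.7 and 52.95 CPM at 3 months, 75.05, 92.3 and 76.6 CPM at 12 months and 41.1, 44.7 and 45.5 CPM at 24 months, with all 3 ages apart. Only the comparison of 24 with 12 months was called (log2 fold change -0.89 ± 0.14 (SE), adjusted p = 0.0240), and it was lost in 6 of 6 fits without 1 kidney (adjusted p up to 0.126). The blocked fits gave adjusted p = 0.119 over 9 kidneys and 0.00161 over the 2 ages alone. The block over the 2 ages alone called 2 of 34 members higher and 6 lower in all, against 7.77% and 5.41% of the 16686 genes in that fit, adding Slc22a23 as higher (log2 fold change 0.97, adjusted p = 0.0108) and Slc22a21, Slc22a22, Slc22a30 and Slco1a4 as lower (adjusted p = 0.00304 to 0.0281), whereas the block over 9 kidneys called 0 members and 0 of all genes in either direction.

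**Figure D4:**
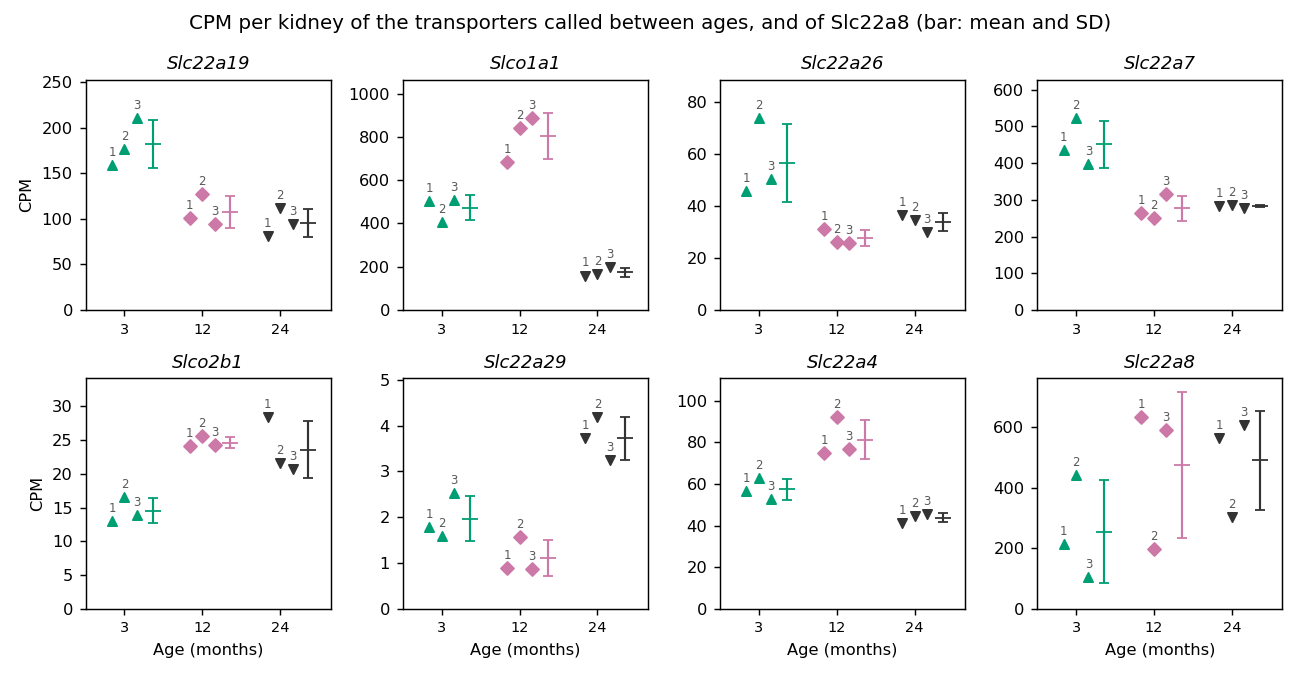
CPM per kidney at 3, 12 and 24 months (n = 3 each, with mean and SD) for the 7 members called in any age comparison and for Slc22a8. Slco1a1 lies lowest at 24 months (159 to 198 CPM), whereas Slc22a8 spans 106 to 634 CPM with overlapping ages.

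The basolateral anion uptake carriers Slc22a6 and Slc22a8 did not pass the test in any age comparison. Slc22a6 (chr19:8618039-8628299, forward strand) was at 1106, 1287 and 792 CPM at 3 months, 1810.5, 828 and 1892 CPM at 12 months and 1249, 972 and 1346 CPM at 24 months. Its ages overlapped (log2 fold change 0.16 ± 0.31 (SE), adjusted p = 0.766 at 24 against 3 months). Slc22a8 (chr19:8591254-8611835, forward strand) was at 215, 440.4 and 106 CPM, 634, 197 and 592 CPM and 563, 304 and 606 CPM. The values at 3 months alone ran from 106 to 440 CPM, and the difference of 0.95 ± 0.57 (SE, adjusted p = 0.376) was not resolved with 3 kidneys per age.

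The organic cation carriers described here were not called either, and fold changes from here on compare 24 with 3 months. Slc22a2 was at 491, 621 and 409.7 CPM, 636, 399.9 and 697 CPM and 482, 407 and 525 CPM, with overlapping ages (log2 fold change -0.11 ± 0.24 (SE), adjusted p = 0.801). Slc47a1 was at 491, 569.7 and 419 CPM, 746, 581 and 825 CPM and 735, 599.6 and 725 CPM. Each older kidney was above each 3-month-old kidney for Slc47a1, but it was not called (log2 fold change 0.48 ± 0.18 (SE), adjusted p = 0.220).

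The urate exchanger Slc22a12 (chr19:6535845-6543032, reverse strand) was at 1366, 1579 and 1137 CPM, 1509.5, 1115 and 1593 CPM and 1143, 934 and 1185 CPM, with overlapping ages (log2 fold change -0.32 ± 0.19 (SE), adjusted p = 0.372). Its exons overlap Nrxn2 on the opposite strand over 682 bases, and its reads may be shared with that gene. Slc22a18 was at 582, 729 and 408 CPM, 721, 470.3 and 767 CPM and 749.7, 590.4 and 791 CPM (log2 fold change 0.31 ± 0.26 (SE), adjusted p = 0.493). The carnitine carrier Slc22a5 was at 264, 251 and 291 CPM, 211, 230.3 and 176 CPM and 178, 255 and 201 CPM (log2 fold change -0.35 ± 0.17 (SE), adjusted p = 0.319). Slco4c1 was at 44.1, 48.7 and 64.04 CPM, 39.6, 71.2 and 44.01 CPM and 37.7, 45.4 and 39.7 CPM (log2 fold change -0.35 ± 0.24 (SE), adjusted p = 0.427).

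Members that led in culture were not called at 24 against 3 months. Slco2a1 was at 23.8, 47.2 and 17.1 CPM, 35.4, 17.02 and 35.1 CPM and 45.4, 26.7 and 41.8 CPM (log2 fold change 0.37 ± 0.41 (SE), adjusted p = 0.604), and Slc22a23 was at 39.04, 62.8 and 23.1 CPM, 39.6, 20.1 and 47.7 CPM and 70.1, 58.8 and 70.6 CPM (log2 fold change 0.67 ± 0.39 (SE), adjusted p = 0.362). Slco3a1 was at 224, 306 and 164 CPM, 357, 196 and 368 CPM and 272, 218 and 278 CPM (log2 fold change 0.15 ± 0.29 (SE), adjusted p = 0.769), and Slco4a1 had a log2 fold change of -0.72 ± 0.62. For 9 members (among them Slc22a2, Slc22a3, Slc22a6, Slc22a7, Slc22a8, Slc22a12, Slc22a20 and Slc22a29) the gene version differed between the 3-month and the older files, so age and gene model cannot be told apart in comparisons with 3 months.

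**Figure D5:**
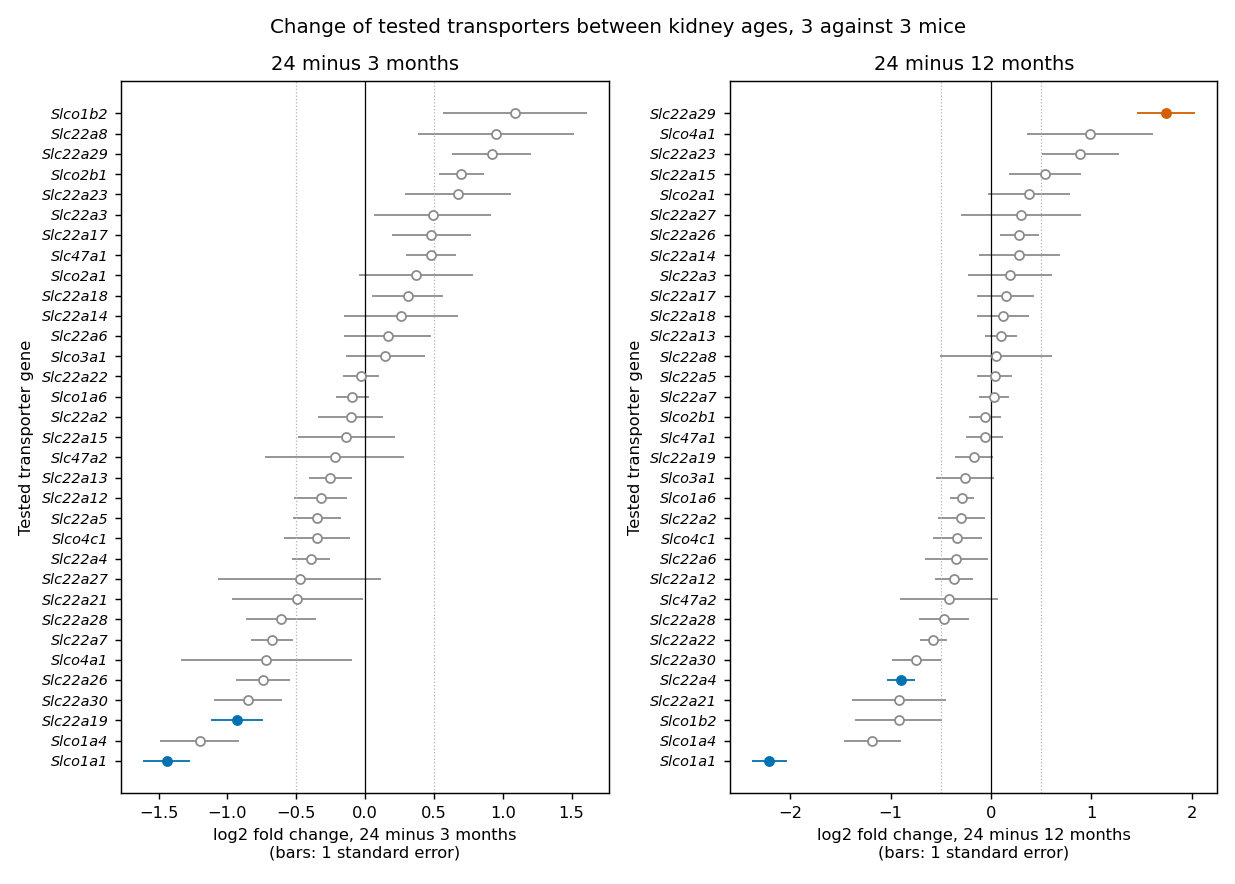
Log2 fold change ± SE of tested members at 24 minus 3 months and at 24 minus 12 months, with called members filled. Slco1a1 lies lowest in both panels, at -1.44 and -2.21, and the 2 panels share the 24-month-old kidneys.

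Kidneys of 1 age differed among themselves in a pattern that recurred. Of the 27 members at 1 CPM or more in every kidney, 13 were lowest in 3-month replicate 3, 12 in 12-month replicate 2 and 11 in 24-month replicate 2. Of the 27, 10 (37%) were lowest in all 3 of these kidneys (Slc22a2, Slc22a6, Slc22a8, Slc22a12, Slc22a17, Slc22a18, Slc22a23, Slc47a1, Slco2a1 and Slco3a1). The 5 members highest in all 3 of them (18.5%, against 25.6% of all genes) were Slc22a5, Slc22a19, Slc22a28, Slc22a30 and Slco4c1. Of all 12204 genes at that level, 47.6%, 52.3% and 44.6% were lowest in each of them, and 33.5% in all 3. In the order of age, these 3 kidneys had podocyte marker sums of 128, 98.4 and 181 CPM and leukocyte marker sums of 53.0, 83.6 and 86.0 CPM, the lowest of their age in each case. Their proximal tubule marker sums were 49816, 52019 and 42539 CPM, lowest of its age only at 12 months. Endothelial sums were 229, 311 and 194 CPM, lowest of their age at 12 and 24 months but not at 3 months. The same held for collecting duct and distal tubule markers (1315, 783 and 1030 CPM) and Henle loop markers (3324, 2643 and 3716 CPM). Fibroblast and pericyte sums (107, 127 and 141 CPM) were highest of their age at 3 and 12 months. Hepatocyte sums (131, 145 and 145 CPM) were lowest only at 24 months. Proliferation sums (4.45, 3.32 and 22.7 CPM) were lowest at no age. The part of these markers in the pattern was not tested.

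The 4 partner lists gave no call in edgeR at any age. From 3 to 24 months, the medians were 0.09 for 10 efflux pumps, 0.07 for 9 exchange partners and scaffolds, 0.00 for 17 other carriers and 0.19 for 12 transcription factors, and edgeR called 0 genes in each list. At an unadjusted p below 0.05 the lists held 1, 0, 1 and 3 genes, against 9.97% of all genes higher and 8.23% lower. These list counts, here and below, take both directions together. DESeq2 called 1 other carrier higher and none in the other lists. From 12 to 24 months the medians were 0.03, -0.12, -0.25 and 0.00. Here edgeR again called 0 genes, with 2, 1, 5 and 2 at an unadjusted p below 0.05, and DESeq2 called 1 other carrier lower. Of all genes, 8.06% were higher and 7.19% lower at that unadjusted p. At 12 against 3 months the medians were 0.09, 0.26, 0.36 and 0.30, against 0.00 over all genes. In this comparison edgeR called 0 as well, with 2, 2, 6 and 3 at an unadjusted p below 0.05. DESeq2 called 1 pump lower and 2 other carriers higher. Here 8.95% of all genes were higher and 7.58% lower at the unadjusted p. Among cell type markers, proliferation genes were higher in 3 of 3 at 24 against 3 months (median log2 fold change 2.11) and in 3 of 3 at 24 against 12 months (2.40), with sums of 4.10 to 4.85, 3.28 to 3.59 and 11.3 to 22.7 CPM at 3, 12 and 24 months. At 24 against 3 months 2 of 6 leukocyte genes (Cd3e and Cd79a) and 4 of 12 proximal tubule genes were higher, against 1.89% of all genes. For the proximal tubule list DESeq2 gave 4 higher and 1 lower there, and 2 higher and 2 lower at 24 against 12 months. The proximal tubule sum was 48544 to 49833 CPM at 3 months, 52019 to 54076 CPM at 12 months and 41299 to 45932 CPM at 24 months. Fibroblast and pericyte markers summed to 89.8 to 107, 107 to 127 and 134 to 162 CPM, and leukocyte markers to 53.0 to 95.4, 83.6 to 112 and 86.0 to 112 CPM, at these ages. At 12 against 3 months 1 of 6 leukocyte genes (Cd79a) was higher, against 1.22% of all genes, and DESeq2 gave 2. Hepatocyte markers summed to 125 to 136, 129 to 145 and 145 to 159 CPM, at 24 months above 3 months without overlap, with 1 of 4 (Serpina1a) called higher at 24 against 3 months. The list went both ways in that comparison. Its median log2 fold change was -0.27, 3 markers had an unadjusted p below 0.05, and DESeq2 gave 1 higher and 1 lower. Distal tubule and collecting duct markers summed to 1189 to 1470, 783 to 979 and 1030 to 1343 CPM, with the 12-month-old kidneys below both other ages without overlap, and 1 of 7 was called lower at 12 against 3 months (4 with an unadjusted p below 0.05, and 5 at 24 against 3 months, where 0 were called). Loop of Henle markers summed to 3151 to 4873, 2643 to 3284 and 3716 to 4746 CPM, at 12 months below 24 months without overlap. Of these 4 markers 0 were called, and 1 had an unadjusted p below 0.05 at 24 against 12 months. Endothelial markers summed to 220 to 295, 311 to 381 and 194 to 374 CPM, at 12 months above 3 months without overlap, with 0 of 6 called and 1 with an unadjusted p below 0.05. Their part in the age results was not tested.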

How the data were processed

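The authors made stranded poly(A) libraries, sequenced them in pairs and deposited raw read counts per gene for each library, for which the submitters' processing notes name GRCm38. The study names the nf-core/rnaseq pipeline and GENCODE M18, but the read counter and its use of strand are not given in the sources used here, so overlapping opposite-strand genes may share reads. The 8 PTEC cultures and the 9 kidneys were fitted apart with edgeR 4.0.16 (R 4.3.3; TMM, low-count filter, robust quasi-likelihood test), with Benjamini-Hochberg adjustment over all 15434 or 17067 genes tested. The standard error was taken as the log2 fold change divided by the root of the F statistic. A gene was called at adjusted p below 0.05 and a log2 fold change beyond 0.5, the thresholds of the study. DESeq2 1.42.0, other scalings, no filter, a replicate block and leaving out each sample were the alternatives. Exon lengths and gene positions came from GENCODE M21 on GRCm38, a later release than the study's.

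Same-numbered PTEC cultures deviated together (r = 0.186 to 0.614), as did 12- and 24-month-old kidneys (r = 0.172 to 0.557). Cultures of different number had r = -0.492 to 0.265, and such kidneys of these 2 ages r = -0.479 to 0.270, above 12- and 24-month replicate 3 (0.172). Pairing was thus taken from the data, every same-numbered r being over 0.1, since the labels give only the numbers. Some r between different numbers were over 0.1 as well, up to 0.265 in PTEC and 0.270 in these kidneys. The rule therefore does not separate pairs, and the adjusted p of the blocked fits depends on it. Kidneys of 3 months did not pair by number, and 3-month replicate 3 was closest to 12-month replicate 2 (r = 0.747). Precision is limited by the depths given above and by the number of samples.

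Named with values were members called in any comparison, the 10 highest over the kidneys, the 5 highest over PTEC and 8 carriers with a textbook role. The members and the lists were chosen with earlier results of these data known. The fits were also run on simulated data, with an outcome that is not given here. Some items are not reported here, although the counts include them.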

Additional observations from a re-analysis of the deposited data

Results flagged for a closer look

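Of 32 groups of 4 cultures examined member by member, 2 held a sample far from the other 3, and chance gives such a gap in about 1 in 20 groups. Slc22a21 stood at 3.03 CPM in non-senescent replicate 4. Slco2b1 stood at 1.11 CPM in senescent replicate 2, and non-senescent replicate 2 was its highest culture as well, at 1.12 CPM.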

How the results depend on the processing

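In PTEC, the counts of members called stayed between 3 and 6 in each direction under every alternative run. The replicate block gave 4 higher and 5 lower, against 23.2% and 21.3% of all genes in that fit. DESeq2 called 11.5% of the genes it tested higher and 10.7% lower. Over all alternatives, 0 log2 fold changes reversed among those called in edgeR as reported or in the alternative. Counts with age were less stable. At 24 against 3 months, the 2 lower calls became 1 by library size alone, with the replicate block (in which numbers pair no samples across these ages), with the compared ages alone or at a log2 threshold of 1, and 6 with DESeq2, which also gave 1 higher. Leaving out each kidney gave 1 to 4 lower and 0 to 1 higher, the most without 3-month replicate 2.

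At 12 against 3 months, the 2 higher calls became 0 by library size alone, without the filter, with the block, with the ages alone or at a threshold of 1, and 0 to 1 when a kidney was left out, whereas DESeq2 gave 3 higher and 3 lower (1.77% and 1.92% of all genes it tested), adding Slc22a22 and Slc22a19. The 2 lower calls became 1 without the filter, 0 with the block, 0 with the ages alone, 1 at a threshold of 1 and 0 to 2 when a kidney was left out. At 24 against 12 months, the block over 9 kidneys gave 0 higher and 0 lower, the block over the 2 ages alone, chosen after seeing the data, 2 higher and 6 lower (7.77% and 5.41% of its genes), DESeq2 4 lower (0.952% of its genes) and a threshold of 1 gave 1 lower. DESeq2 and the threshold of 1 both kept the higher call of Slc22a29. Leaving out each kidney gave 0 higher and 1 lower. The cause of these shifts was not tested.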
